A study of Homo sapiens with 47 samples.

Results

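The comparison covers dPspCas13b and dRfxCas13d, a pair of catalytically dead RNA-targeting nucleases, each profiled by uSpyCLIP-seq in cells that were given no guide RNA and were crosslinked with ultraviolet light. The libraries were chosen by their labels alone and are 6 of the 47 in the series, in 2 of its 20 groups, with 3 libraries for each protein. The deposited results used here are 2 of 17 site lists, 1 for each protein. The cells were Lenti-X 293T, a line derived from human embryonic kidney and kept for packaging lentiviral vectors, in stable lines that each expressed a protein to be captured. All were irradiated on ice at 400 mJ per square centimetre, and their RNA was fragmented with RNase I. The 2 groups differ only in the protein expressed, as far as the labels say. The labels do not say whether the libraries of a group came from separate cultures, how strongly each protein was expressed, or whether each line was 1 clone.

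Cas13 proteins are bacterial nucleases that a guide RNA directs to a complementary RNA. The dead forms keep the fold that holds RNA but do not cut it, and they are used to carry imaging or editing domains to chosen transcripts. A protein expressed without guide can still touch RNA through its basic surfaces, and such contacts form the background against which guided binding is read. In uSpyCLIP-seq ultraviolet light joins protein and RNA where they touch, the protein is captured through the covalent bond of SpyTag with SpyCatcher, and the RNA that stays bound is sequenced.

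A site is 1 entry of a list, with a chromosome, a start, an end and a strand on the human build hg38. A stretch is a run of same-strand sites that overlap by at least 1 nt, merged into 1 interval. The lists hold no read count, score or library total, and sequencing depth is therefore unknown. Because each protein has 1 list, replicate spread could not be measured, and neither a test nor a p-value is given. Ranges in parentheses are 95% intervals, by the exact Clopper-Pearson method for shares and by order statistics for medians, and cover counting error only. A transcript that is more abundant and a transcript that is touched more often cannot be told apart from positions. Capture that does not depend on crosslinking was not tested, since the uncrosslinked lists were not analysed here.

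The dPspCas13b list held 1.67 times as many sites as the dRfxCas13d list but covered almost the same length of genome. It had 4701 sites, 3436 stretches and 516 kb under sites, against 2808 sites, 2663 stretches and 499 kb for dRfxCas13d. dPspCas13b sites were narrower, from 107 to 472 nt, and dRfxCas13d sites ran from 131 to 632 nt. In both lists 98.2% of sites fell in protein-coding genes. Markers checked in the PTBP1 list of 10000000 cells from the same series showed clusters in 5 of 6 genes of epithelial or kidney lines, with none in EPCAM. There were 271 in CDH2, 65 in PAX2, 26 in VIM, 19 in KRT8 and 5 in KRT18. The same list had clusters in 2 of 9 markers of other cell types, namely 4 in COL1A1 and 2 in GFAP. The count in KRT18 was thus close to that in COL1A1. VIM, an intermediate filament gene, held 1 dPspCas13b and 2 dRfxCas13d sites, and no other marker held a site of either protein.

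Few places could be shown with their letters. Sequences come from RefSeq on GRCh38.p14, the assembly behind hg38, and are printed for some microRNAs whose hairpin lay under a site and for gene starts that both proteins touched. The microRNAs shown were chosen after their values were seen, as examples: MIR198 with a site of both proteins, MIR222 with a dPspCas13b site, and MIR4709 and MIR6516 with the hairpin whole under dRfxCas13d sites. In the microRNAs the capitals mark the seed, bases 2 to 8, which pairs with targets. The only hairpin with a site of both proteins was that of MIR198, on the minus strand at chr3:120395668-120395729 within FSTL1, the follistatin-like gene. The dPspCas13b site ran over chr3:120395687-120395818 and the dRfxCas13d site over chr3:120395639-120395823, and both covered the whole mature microRNA at chr3:120395703-120395724.
hsa-miR-198: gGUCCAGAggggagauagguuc
The hairpin of MIR222, a microRNA of the X chromosome with roles in cell proliferation, had a dPspCas13b site over chrX:45747043-45747152. It covered hsa-miR-222-5p, at chrX:45747073-45747094 on the minus strand, and not all of the 3p arm.
hsa-miR-222-5p: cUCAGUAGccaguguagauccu
The hairpin of MIR4709 lay whole under dRfxCas13d sites that spanned chr14:74480079-74480261, 198 nt from the 3′ end of the cholesterol transport gene NPC2. The hairpin of MIR6516 in SEC14L1 lay whole under a dRfxCas13d site at chr17:77089355-77089516. Both arms of each are shown, and no seed is shared among the microRNAs printed.
hsa-miR-4709-5p: aCAACAGUgacuugcucuccaa
hsa-miR-4709-3p: uUGAAGAGgaggugcucuguagc
hsa-miR-6516-5p: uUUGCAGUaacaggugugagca
hsa-miR-6516-3p: aUCAUGUAugauacugcaaaca
Of 1562 hairpins in the reference table, 4 had a dPspCas13b site and 11 a dRfxCas13d site, with 0 and 4 of them covered whole, the 4 being MIR198, MIR4709, MIR6516 and, in EEF1G, MIR6747. Of these, 2 and 11 lay inside a protein-coding gene on the same strand, where host transcript and microRNA precursor cannot be told apart from positions. Whether a hairpin is covered whole also depends on site width, whose median was 124 nt for dPspCas13b and 172 nt for dRfxCas13d.

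Both proteins also had a site over the first transcribed bases of the histone gene H3C2 and of TXN, which encodes the redox protein thioredoxin. The first 30 nt of each are shown, in lower case throughout since no motif was searched. The bases of H3C2 lie on the minus strand at chr6:26032070-26032099, under a dPspCas13b site at chr6:26032019-26032130 and a dRfxCas13d site at chr6:26031998-26032140. Those of TXN lie on the minus strand at chr9:110256478-110256507, under a dPspCas13b site at chr9:110256401-110256556 and a dRfxCas13d site at chr9:110256399-110256572.
H3C2 first bases: acagacgtctctgcaggcaagcttttctgt
TXN first bases: gaagctctgtttggtgctttggatccattt
A site covered some of the first 50 transcribed nt in 30 of 1684 dPspCas13b genes with a start in the table, or 1.78% (1.21 to 2.53). For dRfxCas13d it did so in 52 of 1614 genes, or 3.22% (2.42 to 4.20). The wider dRfxCas13d sites, with a median of 172 nt against 124 nt, can reach these bases from farther away. Shares at equal width were not computed. H3C2 and TXN were the 2 genes found with both.

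Which genes each protein reached was the first question. dPspCas13b had stretches in 2062 genes and dRfxCas13d in 1944, and they shared 734. The shared genes were 35.6% (33.5 to 37.7) of the dPspCas13b genes and 37.8% (35.6 to 40.0) of the dRfxCas13d genes, so most genes of either list, 1328 and 1210, were listed for that protein alone. Against all 20033 protein-coding genes, 10.1% had a dPspCas13b stretch, 9.52% a dRfxCas13d stretch, and 3.63% both. Stretches of dPspCas13b alone were found in 6.5% of protein-coding genes, and stretches of dRfxCas13d alone in 5.9%. PTBP1 clusters of the 10000000-cell list lay in 12450 of the 20033 protein-coding genes. They lay in 99.5% of the shared genes, 98.0% of the genes of dPspCas13b alone and 96.2% of those of dRfxCas13d alone. For these shares clusters on either strand counted, and noncoding genes were included.

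Genes with several stretches were shared more often than genes with 1. Among protein-coding genes with 1 dPspCas13b stretch, 27.7% (25.3 to 30.2) also had a dRfxCas13d stretch, and the share was 46.0% (40.8 to 51.2) with 2 stretches and 57.4% (51.8 to 62.9) with 3 or more. In the other direction the shares were 31.6% (29.2 to 34.0), 52.5% (46.9 to 58.0) and 73.9% (65.6 to 81.1). At least 2 dPspCas13b stretches were found in 3.47% of all protein-coding genes, and at least 2 of dRfxCas13d in 2.3%. Most bound genes had a lone stretch, 65.9% with dPspCas13b and 76.2% with dRfxCas13d. Genes with 3 or more made up 15.9% of the dPspCas13b genes and 6.89% of the dRfxCas13d genes. At least 4 stretches of one protein and none of the other were found in 60 genes for dPspCas13b and in 14 for dRfxCas13d.

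Among the genes with many dPspCas13b stretches was SCD, which encodes the desaturase that makes monounsaturated fatty acids. It held 10 dPspCas13b stretches with 13 sites and none of dRfxCas13d. The midpoints of all 10 lay within 2901 nt of the 3′ end, from chr10:100361861-100361990 to chr10:100364635-100364755. INSIG1, whose product holds back sterol synthesis in the endoplasmic reticulum, held 9 and 0, of which 6 lay in the last 2000 nt of the gene. NUCKS1, a chromatin protein gene, held 14 dPspCas13b and 4 dRfxCas13d stretches, all of them between 86.3% and 98.1% of the way along the gene span from its 5′ end.

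Other genes with many dPspCas13b stretches differed in where these lay. KPNB1, the importin beta gene, held 11 and 4, from 40.1% to 95.9% of the span for dPspCas13b. SMC1A, a cohesin subunit gene on the X chromosome, held 10 and 1, and the RNA helicase gene DDX3X, also on the X chromosome, held 8 and 1. The phosphatase gene PTP4A2 held 9 and 1, and the chaperonin subunit gene CCT4 9 and 3. DDX21, a nucleolar helicase gene, and MIB1, a ubiquitin ligase gene of Notch signalling, held 7 dPspCas13b stretches each and none of dRfxCas13d.

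The largest gap between the proteins was in a noncoding RNA. XIST, the RNA that coats the inactive X chromosome, held 17 dPspCas13b stretches with 21 sites and 1 dRfxCas13d stretch, which overlapped none of the 17. The dPspCas13b stretches reached from chrX:73823321-73823436 to chrX:73851874-73851988, close to the whole length of the gene, which spans chrX:73820656-73852714 on the minus strand. Long noncoding genes held 50 dPspCas13b sites and 14 dRfxCas13d sites, in 13 and 12 genes. Several of these genes host small nucleolar RNAs. ZFAS1 held 3 and 2 stretches, GAS5 3 and 1, SNHG5 2 and 2, and SNHG29 4 and 0. NORAD, which binds Pumilio proteins, held 2 and 0. Genes classed as small RNA held 14 and 17 sites, with SNORA69 and SNORD133 listed for both proteins. The class took precedence over other genes at the same place, and host transcript and small RNA cannot be told apart from positions. Its dRfxCas13d count includes LOC124901105, an RNA gene of 3196 nt within the span of the protein-coding gene CSNK1A1.

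CLTC, the clathrin heavy chain gene, held the most dRfxCas13d stretches of any gene, 12, and 2 of dPspCas13b. The 12 lay from 31.7% to 85.3% of the gene span and none in the last 2000 nt, and the 2 of dPspCas13b lay at 81.5% and 82.0%. IARS1, the isoleucyl-tRNA synthetase gene, held 9 dRfxCas13d and 3 dPspCas13b stretches. DYNC1H1, the heavy chain gene of cytoplasmic dynein, held 8 and 1, and HUWE1, the gene of a large ubiquitin ligase, 7 and 1. BLTP2, a gene for a lipid transfer protein, held 7 and 0. None of the dRfxCas13d stretches in DYNC1H1, HUWE1 and BLTP2 lay in the last 2000 nt.

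Other genes with more dRfxCas13d than dPspCas13b stretches included TUFM, the mitochondrial elongation factor gene, with 5 and 0. CSNK1A1, a kinase gene of the Wnt pathway, DGCR2 and the helicase gene HELZ held 4 and 0 each. KHDRBS1, the gene of the RNA-binding protein Sam68, held 6 and 2, the deubiquitinase gene USP22 7 and 4, and the chaperonin subunit gene CCT7 6 and 3.

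Among genes that both proteins bound repeatedly, ATP5F1B, the beta subunit gene of mitochondrial ATP synthase, held 8 stretches of each, and 6 of the 8 overlapped. HSPA8, the constitutive Hsp70 chaperone gene, held 6 dPspCas13b and 5 dRfxCas13d stretches, and all 5 overlapped one of dPspCas13b. At one of these places dPspCas13b had chr11:123058640-123058777 and dRfxCas13d chr11:123058633-123058789. CTNNB1, the beta-catenin gene, held 5 and 7, with 4 in overlap. PRKDC, the DNA-dependent protein kinase gene, held 7 and 8 with 2 in overlap, and USP9X, a deubiquitinase gene, 6 and 5 with 3. PPP1CC, a phosphatase subunit gene, held 5 of each, with 3 in overlap. BIRC5, the survivin gene, held 5 and 4 with 3 in overlap. ATP5F1A held 4 and 5, with 2 in overlap.

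**Figure D1:**
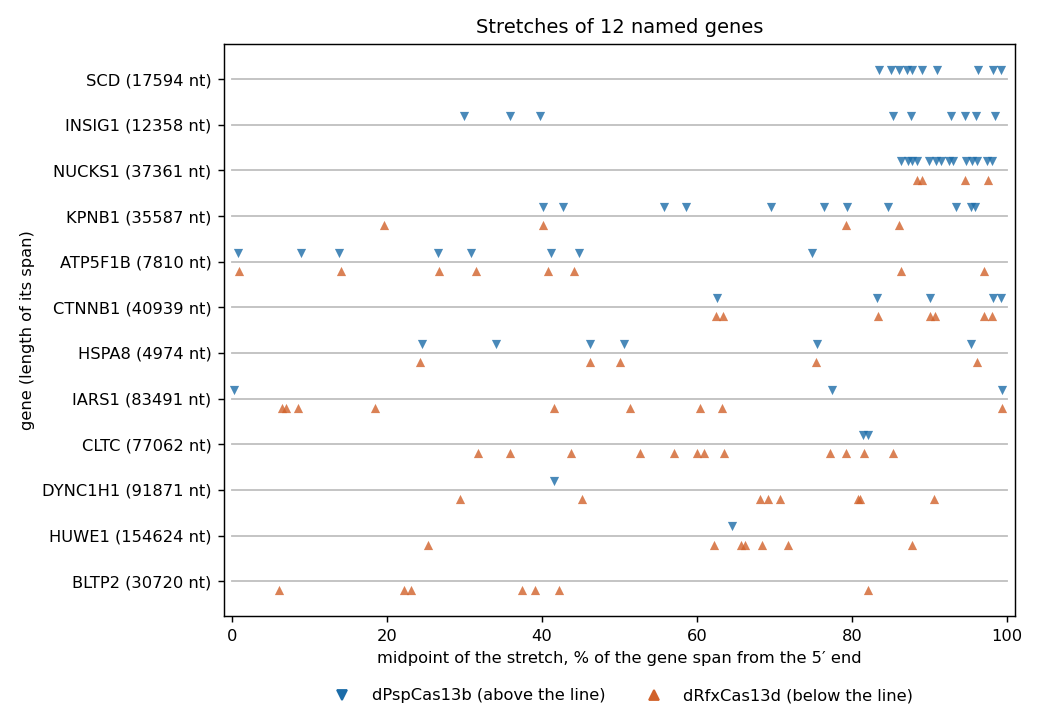
Midpoints of dPspCas13b stretches (blue, above each line) and dRfxCas13d stretches (orange, below) in 12 of the genes named by their number of stretches, as percent of the gene span from the 5′ end. In SCD and NUCKS1 the symbols gather from 83.5% of the span on, in HSPA8 and ATP5F1B the symbols of both proteins pair up, and in CLTC the 12 dRfxCas13d stretches are spread from 31.7% to 85.3%.

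Sharing of a gene did not usually mean sharing of a place. Of 734 shared genes, 280 had at least 1 overlapping pair of stretches, or 38.1% (34.6 to 41.8), and there were 363 such pairs in all. In 454 shared genes no pair overlapped. In 131 of these the nearest centres lay within 1000 nt, and the median distance between nearest centres was 3500.5 nt. Over all sites, 550 of dPspCas13b, or 11.7% (10.8 to 12.7), and 395 of dRfxCas13d, or 14.1% (12.8 to 15.4), overlapped a site of the other protein. Within shared genes alone these shares were 25.5% (23.7 to 27.4) and 30.6% (28.1 to 33.2).

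The 5 longest overlaps lay near 3′ ends. The stretches of PSAP, the prosaposin gene of lysosomal lipid breakdown, shared 452 nt at chr10:71816812-71817263. Those of HINT1, a gene for a nucleotide hydrolase, shared 343 nt at chr5:131159322-131159664. HSP90AA1, the inducible Hsp90 gene, had 337 nt in common, TOMM20, the gene of a mitochondrial import receptor, 304 nt, and ARF4, a small GTPase gene of the Golgi, 289 nt. The midpoints of the dPspCas13b stretches at these 5 places lay between 466 nt (HINT1) and 1777 nt (TOMM20) from the 3′ end.

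Position along the gene separated the lists. In protein-coding genes of known strand, the midpoint fell in the last 2000 nt of the gene for 46.8% (45.4 to 48.3) of 4576 dPspCas13b sites. For dRfxCas13d it did so for 31.7% (29.9 to 33.5) of 2736. The last 2000 nt made up 11.8% and 12.5% of the span of the bound genes when each gene counted by its sites, and 3.08% and 3.03% of their summed span. These spans include introns, so they are no measure of what is present in spliced messages. The part of a spliced message that the last 2000 nt make up was not computed. The last 10% of the gene held 52.5% (51.1 to 54.0) of the sites of dPspCas13b, and 35.5% (33.7 to 37.3) for dRfxCas13d. The first 10% held 3.37% (2.86 to 3.93) and 6.07% (5.20 to 7.03). The median distance to the 3′ end was 2302.5 nt for dPspCas13b and 4913.5 nt for dRfxCas13d.

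After overlapping sites were merged, 41.9% (40.2 to 43.6) of dPspCas13b and 30.2% (28.4 to 32.0) of dRfxCas13d stretches lay in the last 2000 nt. In genes bound by both proteins the shares of sites were 47.9% and 31.8%. Gene by gene, the median dPspCas13b position lay nearer the 3′ end than the median dRfxCas13d position in 437 of 725 shared genes, or 60.3%, farther in 285, and at the same place in 3.

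Overlapping sites are the same places in both lists, so their positions are not separate measurements. Of dRfxCas13d sites that overlapped a dPspCas13b site, 51.0% (45.9 to 56.1) lay in the last 2000 nt, against 28.5% (26.7 to 30.4) of the others. For dPspCas13b the shares were 53.9% (49.6 to 58.2) and 45.9% (44.3 to 47.4).

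Repeated overlapping sites marked the dPspCas13b list. Of its sites, 2048 lay in 783 stretches of 2 or more, or 43.6% (42.1 to 45.0) of the list. In the dRfxCas13d list 273 sites lay in 128 such stretches, or 9.72% (8.65 to 10.9). Stretches of 3 or more sites numbered 254 and 16, those of 5 or more 52 and 0, and the most sites in a stretch were 13 and 4. Repeated stretches were found in 615 dPspCas13b genes and 124 dRfxCas13d genes. From one site to the next in a repeated stretch, starts moved by a median of 49 nt with dPspCas13b and 98 nt with dRfxCas13d.

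The dPspCas13b stretch with most sites lay in CDK2, the gene of a cell cycle kinase, with 13 sites over 902 nt at chr12:55971847-55972748, 492 nt from the 3′ end. No dRfxCas13d site overlapped it. ARF4 had 11 sites over 639 nt at chr3:57571641-57572279, where dRfxCas13d had 2. Stretches of 9 sites lay in DDB1, a ubiquitin ligase adaptor gene, in EMD, the emerin gene of the nuclear envelope, and in KIAA1191. These lay 379, 196 and 954 nt from the 3′ end. MZT1 and PSMD11 had a stretch of 9 sites too.

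For dRfxCas13d, HSP90AA1 held the longest repeat, 4 sites over 850 nt at chr14:102081040-102081889. Stretches of 3 sites lay in CDC27, a gene of the anaphase-promoting complex, in CNBP, in DLST, an enzyme gene of the citric acid cycle, and in LASP1. Repeated stretches lay nearer the 3′ end than lone sites with both proteins. With dPspCas13b 53.9% (50.3 to 57.5) of repeated and 38.3% (36.5 to 40.3) of lone stretches were in the last 2000 nt, and with dRfxCas13d 57.6% (48.4 to 66.4) and 28.8% (27.0 to 30.7).

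Stretches with more sites overlapped the other protein more often, but they were also wider. A dRfxCas13d site overlapped 8.78% (7.73 to 9.92) of dPspCas13b stretches of 1 site and 26.9% (15.6 to 41.0) of those with 5 or more, whose median widths were 122 and 459 nt. Per 1000 nt of stretch the numbers of overlapped stretches were 0.69 and 0.55. In the dRfxCas13d list a dPspCas13b site overlapped 12.3% (11.1 to 13.7) of stretches of 1 site, 26.8% (18.9 to 36.0) of 112 with 2 sites and 56.3% (29.9 to 80.2) of 16 with 3 or 4. Per 1000 nt these came to 0.68, 0.88 and 1.35, with few stretches in the last class. The values per 1000 nt count each stretch at most once and leave out the width of the other protein's sites, which lowers them for wide stretches. Whether width accounts for the more frequent overlap was not tested.

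**Figure D2:**
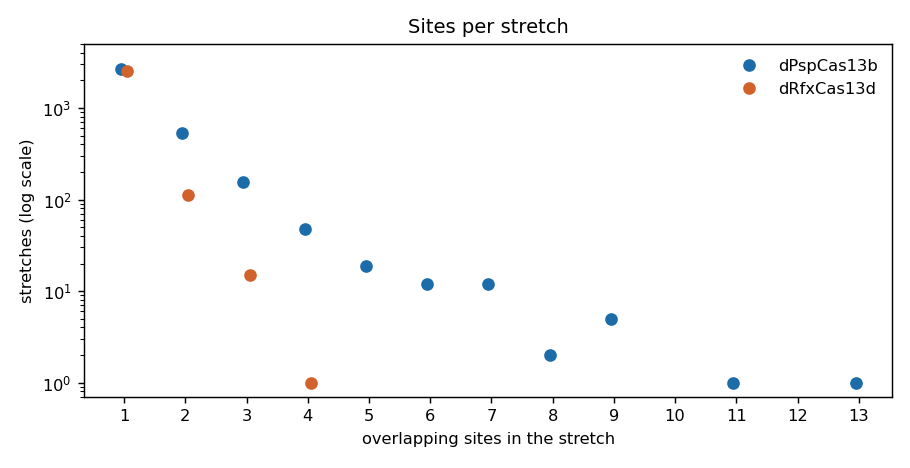
Number of stretches (vertical axis, log scale) by the number of overlapping sites they hold, for dPspCas13b (blue) and dRfxCas13d (orange). dRfxCas13d has 1 stretch of 4 sites and none beyond, whereas dPspCas13b has 52 stretches of 5 or more, up to 13.

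The median span of protein-coding genes was 38691 nt (35919 to 42063) for those of dPspCas13b alone, 34848 nt (32764 to 38939) for those of dRfxCas13d alone and 31948 nt (29159 to 35004) for shared genes. The intervals of the genes of either protein alone overlapped. Among protein-coding genes with at least 2 stretches of one protein and none of the other, the medians were 40504 nt for dPspCas13b and 32716 nt for dRfxCas13d. All protein-coding genes had a median of 24130 nt, and those with a PTBP1 cluster 37430 nt. The share of genes bound was lowest in genes of up to 5000 nt, at 4.10% with dPspCas13b and 4.41% with dRfxCas13d. It was highest between 50000 and 100000 nt, at 14.1% and 12.5%.

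The longest genes with at least 2 stretches of dPspCas13b and none of dRfxCas13d were ATRNL1, with a span of 855635 nt, STK3, ITPR2, ABLIM1 and SLIT2. ITPR2 encodes a calcium release channel and SLIT2 an axon guidance ligand, and SLIT2 held 3 stretches. The shortest were the noncoding LOC119746555, then ATF4, the transcription factor gene of the amino acid stress response with a span of 2128 nt, TCEAL8, UQCRQ and CIAO2B. For dRfxCas13d the longest were the polarity genes PARD3, with a span of 705736 nt, and PATJ, followed by MID1, PCNX2 and ZFAND3. The shortest were GPX1, a glutathione peroxidase gene of 1178 nt, NAXE, MRPS24, HSD17B10 and SRSF2, a splicing factor gene.

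The share in the last 2000 nt is bound to gene length by its definition, so the proteins were compared within classes of length. In genes of up to 5000 nt, the last 2000 nt held 83.5% (78.4 to 87.8) of dPspCas13b and 81.4% (75.3 to 86.5) of dRfxCas13d sites. In genes over 100000 nt the shares were 31.1% (27.7 to 34.8) and 14.8% (11.7 to 18.5). As a share of the span from the 5′ end, the median position was 82.7% in the shortest and 96.0% in the longest class with dPspCas13b, and 70.3% and 81.6% with dRfxCas13d. dPspCas13b had the larger share in the last 2000 nt in every class of length, and the intervals overlapped only in the shortest class.

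By function, members of most housekeeping groups were listed more often than protein-coding genes at large. Gene groups were written as 32 lists of symbols, and in 29 of them the share of members with a stretch was above that of all protein-coding genes for dPspCas13b, and in 29 for dRfxCas13d. In some of these lists the interval included that level. Examples are replication-dependent histones with dPspCas13b, at 15.9% (8.24 to 26.7), and sterol and fatty acid genes with dRfxCas13d, at 13.6% (2.91 to 34.9). The level counts all 20033 protein-coding genes, of which 12450 had a PTBP1 cluster, so it may include genes not transcribed in these cells. Over all protein-coding genes the median number of stretches was 0 for each protein. Of all stretches in genes, dPspCas13b contributed 56.3% (55.1 to 57.6), which is the level to read each group against.

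In the translation machinery, 41 of 86 cytosolic ribosomal protein genes had a dPspCas13b stretch and 37 a dRfxCas13d stretch, with 25 in common. These held 76 and 60 stretches. RPS20 held 4 and 3, RPL11 2 and 4, and RPL15 4 and 0. Translation factors were bound in 31 and 24 of 74 members, with PABPC1, the poly(A) binding protein gene, at 7 and 4, EIF3E at 6 and 1, and EIF2S3 at 5 and 1. Aminoacyl-tRNA synthetases were bound in 9 and 11 of 35 members, with 17 and 27 stretches. More members had an excess of dRfxCas13d, 9 against 3, and without IARS1 the stretches numbered 14 and 18. IARS2, the mitochondrial counterpart of IARS1, held 5 and 0.

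Among protein folding and turnover genes, chaperones and chaperonins were bound in 23 and 27 of 86 members, 19 of them by both proteins, with 60 and 58 stretches. HSP90AA1 held 3 and 5, HSP90AB1 5 and 3, and CCT8 4 of each. Proteasome subunits were bound in 9 and 10 of 39 members, and 2 of them, PSMB4 and PSMB5, had both proteins. Ubiquitin-conjugating enzymes were bound in 10 and 7 of 34.

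In energy metabolism, 29 and 23 of 86 genes of the respiratory chain and ATP synthase were bound, with 48 and 43 stretches. Glycolytic enzymes were bound in 9 and 8 of 18. GAPDH held 4 dPspCas13b stretches, all in its last 2000 nt, and none of dRfxCas13d, while PGK1 held 3 and 2. Mitochondrial import genes were bound in 5 members with each protein, with 16 and 8 stretches, of which TOMM20 held 7 and 4.

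Transport and lipid genes are given next, against the 56.3% over all genes. dPspCas13b contributed 89.7% (75.8 to 97.1) of the stretches in sterol and fatty acid genes, 75% (62.1 to 85.3) in importins and exportins and 35.3% (22.4 to 49.9) in vesicle coat genes. Each of these ranges counts every stretch as separate. Many stretches lie in the same gene, so the ranges are too narrow to set a group apart from 56.3%. Importins and exportins held 45 dPspCas13b and 15 dRfxCas13d stretches, in 13 and 8 of 25 members, and 34 and 11 without KPNB1. IPO5 held 7 and 1, KPNA6 6 and 0, and XPO1, the main exportin gene, 4 and 0. Sterol and fatty acid synthesis genes held 35 and 4, in 8 and 3 of 22 members, with 25 of the 35 and none of the 4 in the last 2000 nt. Without SCD and INSIG1 the group held 16 and 4, with ACLY at 5 and 0 and SREBF2, a regulator of sterol genes, at 3 and 2. Of the bound members 7 had more dPspCas13b and 0 more dRfxCas13d stretches. Vesicle coat genes went the other way, with 18 and 33 stretches in 13 and 16 of 50 members, and 16 and 21 without CLTC. Members with more dRfxCas13d stretches numbered 12, against 5 with more of dPspCas13b. Over all 3211 bound protein-coding genes, 1568 had more dPspCas13b stretches, 1320 more dRfxCas13d stretches and 323 the same number.

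Dynein, dynactin and kinesin genes held 16 and 17 stretches, but 15 and 9 without DYNC1H1. KIF2A held 4 and 0. RAB and other small GTPases held 45 and 24, in 24 and 19 of 100 members, and RHOA held 4 and 2. Actin and tubulin genes held 7 and 8, in 5 members for each protein.

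Among genes of RNA-binding proteins, hnRNP genes were bound in 19 of 34 members by dPspCas13b and in 9 by dRfxCas13d, 8 of them shared. HNRNPA0 held 5 and 1, and PCBP2, a gene of a poly(C) binding protein, 2 and 5. SR protein genes were bound in 9 and 7 of 16 members, spliceosomal protein genes in 13 and 15 of 55, RBM genes in 9 and 5 of 37, and DEAD/H-box helicase genes in 11 and 13 of 53. Chromatin and replication genes were bound in 16 of 33 members by each protein in the first list and in 22 and 17 of 49 in the other. Besides NUCKS1 and SMC1A, MCM7 held 1 and 4, and H3-3B 1 and 4. Replication-dependent histone genes, whose messages end in a stem-loop in place of a poly(A) tail, were bound in 11 and 10 of 69 members.

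Amino acid transport and stress genes were bound in 10 and 6 of 17 members. SLC38A2, a glutamine transporter gene, held 7 and 0, SLC38A1 5 and 0, and PHGDH, the first enzyme gene of serine synthesis, 0 and 4. Selenoprotein genes were bound in 6 members by each protein, with SELENON shared. Iron genes were bound in 2 of 8 by each. The transferrin receptor gene TFRC held 3 and 0, and the ferritin gene FTL 1 and 2. Protein phosphatase subunits were bound in 12 and 16 of 80, and PPP1CA held 0 and 4 where PTP4A2 held 9 and 1. Of the 7 genes of 14-3-3 proteins, 4 were bound by each protein, and YWHAQ held 4 and 1. Mitochondrial ribosomal protein genes were bound in 15 and 12 of 76.

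At the low end, the ZNF zinc finger genes were bound in 21 and 24 of 509 members, or 4.13% (2.57 to 6.24) and 4.72% (3.04 to 6.93). Solute carriers were bound in 29 and 30 of 350, or 8.29% (5.62 to 11.7) and 8.57% (5.86 to 12.0). These intervals include the shares of all protein-coding genes, 10.1% and 9.52%. No olfactory receptor gene of 390 had a site of either protein, which allows a share of up to 0.941%.

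**Figure D3:**
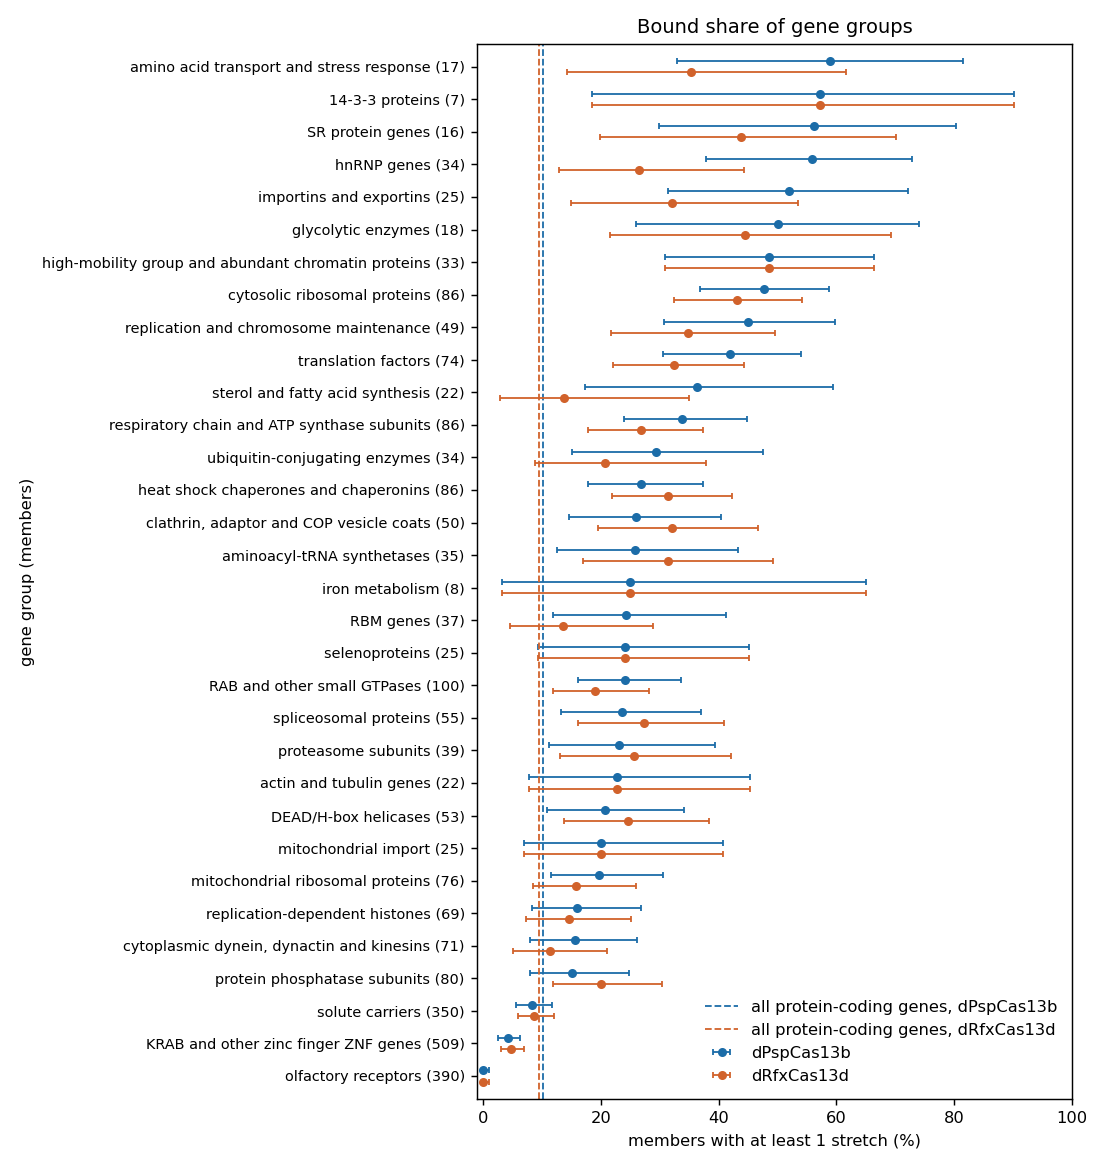
Share of the members of each gene group with at least 1 stretch of dPspCas13b (blue) or dRfxCas13d (orange), in percent with exact 95% intervals, with the number of members in parentheses. Dashed lines mark the share of all protein-coding genes, 10.1% and 9.52%. The 3 groups at the bottom, solute carriers, ZNF genes and olfactory receptors, lie below both, but the intervals of solute carriers include them.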

How the data were processed

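Human Lenti-X 293T cells expressing dPspCas13b or dRfxCas13d without guide RNA were profiled by uSpyCLIP-seq after ultraviolet crosslinking. The authors deposited 1 site list per group, tied to the first of its 3 libraries, with positions and strands as other values and no score. Per the submitters' processing notes, Trim Galore 0.0.6, STAR 2.7.9a and hg38 were used. For the site caller, its thresholds and any pooling of libraries, nothing is given in the sources used here.

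Starts, counted from 0 in the lists, are printed from 1. Genes came from RefSeq spans of GRCh38.p14 without exons, so exons, introns and untranslated regions were not parted. Of 20033 protein-coding genes, 15841 took their strand from the reference and 1747 from PTBP1 clusters of the 10000000-cell list (at least 3, with 90% on 1 strand), a rule that gave the reference strand in 96.6% of 8540 genes. Each site was assigned to a gene that spans its midpoint and has the same strand or none known. Small RNA genes took precedence, followed by protein-coding, long noncoding and other genes, with ties going to the shortest.

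Named genes are the 10 with most stretches in each list, the 10 with the largest difference in each direction, the 10 with the largest smaller count, the 5 stretches with most sites, the 5 longest shared stretches, the 5 longest and 5 shortest genes with at least 2 stretches of one protein only, and up to 6 members of each gene list. MZT1 and PSMD11, the microRNAs, the gene starts and the noncoding genes other than XIST and LOC119746555 were named after their values were seen. A few genes that the rule names are not reported here. Members and lists were chosen with earlier results of these data known. Overlap, merging and gene assignment were tested on simulated sites. Computation used Python 3.11.15, numpy 2.4.6, pandas 2.3.3, scipy 1.17.1 and matplotlib 3.10.9.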

Additional observations from a re-analysis of the deposited data

How the results depend on the processing

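No paired analysis was possible because each protein has 1 list, which carries no replicate number. dPspCas13b kept the larger share near the 3′ end and in repeated stretches under every alternative run. Its share of sites in overlap was the smaller in each, by very little with centres within 500 nt. Overlap is mutual, so a longer list tends to have the smaller share, and the lists held 4701 and 2808 sites. The order in overlap is therefore not read as a difference between the proteins. When a gene needed at least 2 stretches to count as bound, 537 had at least 2 of dPspCas13b and fewer than 2 of dRfxCas13d, 295 the reverse and 167 at least 2 of each. Of the 537 and 295, 342 and 190 had none of the other protein. The other gene assignments stayed within 1.5 times. Overlapping sites, dPspCas13b first, made up 9.53% and 12.4% at 50% of the shorter site, 18.7% and 18.8% with centres within 500 nt, and 10.6% for dPspCas13b after merging. With every site set to 107 nt, an alternative chosen after seeing the data, overlap came to 10.00% and 12.7%, and repeated sites to 40.0% and 4.88%. Repeated sites were 33.9% and 5.09% at 50% of the shorter site, and 50.2% and 13.4% when sites up to 100 nt apart were joined. The share near the 3′ end was 30.9% and 19.4% for the last 1000 nt, 67.2% and 50.4% for the last 5000 nt, 42.7% and 25.9% in genes over 10000 nt, and 41.9% for dPspCas13b after merging. Strand from the reference only, also added later, left it within the interval. Median spans of protein-coding genes with at least 2 stretches of one protein and none of the other were 40504 nt for dPspCas13b and 32716 nt for dRfxCas13d, and 29061 nt with at least 2 of each. Depth is unknown, so absence from a list does not show that a gene was not bound.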

Other observations

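The ratio of genes with a dPspCas13b stretch to genes with a dRfxCas13d stretch was highest on the X chromosome. Of its 848 protein-coding genes, 102 had a dPspCas13b stretch, or 12.0% (9.91 to 14.4), and 60 a dRfxCas13d stretch, or 7.08% (5.44 to 9.01). The ratio of bound genes was 1.7 there, and on the 22 autosomes it ranged from 0.67 on chromosome 19 to 1.47 on chromosome 13, with a median of 1.08. The X chromosome's share of all sites was 6.57% (5.88 to 7.32) for dPspCas13b and 3.56% (2.91 to 4.31) for dRfxCas13d, or 6.15% and 3.53% without XIST. HUWE1, MID1 and HSD17B10 on the X chromosome had more dRfxCas13d than dPspCas13b stretches.

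Sites that began upstream of an annotated gene start did so at different distances. Of 38 such dRfxCas13d sites, 16 began 61 to 80 nt upstream, and of 22 such dPspCas13b sites 0 did. In the band of 41 to 60 nt there were 6 dPspCas13b and 4 dRfxCas13d sites, and from 1 to 20 nt there were 10 and 9. The narrowest sites of the lists were 107 nt for dPspCas13b and 131 nt for dRfxCas13d. These bands were chosen after seeing the values.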
